A study of Rattus norvegicus with 10 samples.

Results

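The cadherins and protocadherins of the rat supraoptic nucleus were described here in animals deprived of water for 72 h and in animals with free access to water. Members were the genes whose symbol in the authors' deposited table began with Cdh and a digit or with Pcdh: 72 of the 32402 genes listed, made up of 23 cadherins, 11 non-clustered protocadherins and 38 clustered protocadherins. The symbol alone decided which genes belonged, but the family was chosen with earlier results of these data known. Of the 72, 68 had enough counts to be tested. The study sequenced polyadenylated RNA from 5 dehydrated samples (Wistar Han rats, drinking water removed for 72 h) and 5 euhydrated samples (Wistar Han rats, water freely available), with no other treatment or allele in the labels. Cages, not animals, were allotted to water or none, and each sample was punched from both nuclei with a 1 mm corer over 12 frozen slices. Whether samples came from separate animals is not in the labels; p-values here therefore reflect how far these samples spread, some of which may be technical, and cage was not modelled.

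Cadherins are membrane proteins whose extracellular repeats bind calcium and hold cells together. Classical type I and type II cadherins tie the membrane to actin through catenins, and protocadherins lack that link. The clustered protocadherins sit in alpha, beta and gamma arrays in which each variable exon has its own promoter, and neurones express varying combinations of them, which are known for letting neurites tell self from other. In the supraoptic nucleus, magnocellular neurones, astrocytes and capillaries are known to change their contacts during dehydration.

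The 10 libraries held 24268398 to 28491926 counts. Levels are CPM (counts scaled to a common library size) after TMM scaling. They are not corrected for gene length, so each gene is compared only with itself. The tissue label was checked by the level of 7 magnocellular markers, not by their change. Their summed level was 11885 to 15653 CPM in dehydrated and 8042 to 11487 CPM in euhydrated libraries. Avp, for vasopressin, averaged 8475 ± 928 and 6153 ± 1218 CPM (SD, n = 5 each), with an edgeR adjusted p of 0.08. Of the 7, 3 rose: Pdyn, Caprin2 and Nrsn1, at log2 fold changes of 1.03, 1.81 and 0.69. Avp, Oxt, Otp and Sim1 did not pass (0.46, 0.18, 0.07 and 0.09). In punched tissue, fewer cells of a type and less RNA per cell cannot be told apart. Of all 15311 genes tested, 12.7% passed an edgeR adjusted p of 0.05 (7.79% higher and 4.90% lower after dehydration); scaled by library totals alone, 904 genes were higher and 1173 lower, against 1192 and 750 here, while the same members passed. Of 7 erythrocyte markers 1 fell and 0 rose; their mean log2 CPM was 4.79 ± 0.57 in dehydrated and 5.63 ± 0.49 in euhydrated libraries (SD, n = 5 each; exact two-sided permutation p = 0.0397, adjusted p = 0.238 over the marker lists), and their summed level ran from 590.3 to 1428 and from 1027 to 2058 CPM. Of 8 mature oligodendrocyte markers 2 fell, at a mean log2 CPM of 9.02 ± 0.14 and 9.16 ± 0.17 (exact permutation p = 0.198).

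Because each clustered protocadherin is read from its own promoter, the stretch those promoters share is shown first. RefSeq holds a window around the start site (250 bases before it to 50 after, build GRCr8) for 51 of the 71 member symbols. After the windows had been read, the letters GNGNCGCTG were searched on both strands. They occurred in 14 of 15 beta and 9 of 13 gamma windows, in 3 of 23 windows of cadherins and non-clustered protocadherins, and in 6.18% of all 33469 windows. The core CGCTG within it, in capitals here, was common, being in 37% of all windows. These 8 stretches of 37 bases are on the plus strand of chromosome 18 and were taken from genes whose values are given further on.
Pcdhb5: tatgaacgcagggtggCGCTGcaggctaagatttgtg
Pcdhb6: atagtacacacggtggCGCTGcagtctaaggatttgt
Pcdhb8: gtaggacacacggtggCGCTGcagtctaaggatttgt
Pcdhb9: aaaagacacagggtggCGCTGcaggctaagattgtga
Pcdhga2: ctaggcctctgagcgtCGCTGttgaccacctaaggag
Pcdhga3: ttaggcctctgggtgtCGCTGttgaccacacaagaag
Pcdhga8: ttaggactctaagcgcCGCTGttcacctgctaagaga
Pcdhgc3: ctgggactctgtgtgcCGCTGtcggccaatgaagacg

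They lie at chr18:29302403-29302439 (Pcdhb5), chr18:29320151-29320187 (Pcdhb6), chr18:29339257-29339293 (Pcdhb8), chr18:29379247-29379283 (Pcdhb9), chr18:29745082-29745118 (Pcdhga2), chr18:29750314-29750350 (Pcdhga3), chr18:29804999-29805035 (Pcdhga8) and chr18:29884065-29884101 (Pcdhgc3). The beta stretches share letters before the core as well as after it. The gamma stretches printed here differ from the beta stretches. Among themselves these gamma stretches also share letters before the core, and fewer after it. Pcdhb6 and Pcdhb8 matched at 35 of 37 positions, the closest of 91 pairs among the 14 beta stretches (median 26, lowest 19). A match in letters is a description and says nothing on what binds there.

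Few members passed the test. Cdh9, Cdh13 and Pcdh12 rose, Cdh4, Cdh6 and Pcdhga3 fell, and 62 did not pass: 6 of 68 tested members, or 8.82%, beside 12.7% of all genes. By direction 4.41% rose and 4.41% fell, beside 7.79% and 4.90% of all genes. At an unadjusted p under 0.05 stood 15 of the 68, beside 4046 of all 15311 genes. The groups did not overlap in 5 members (Cdh4, Cdh9, Cdh13, Pcdh12 and Pcdhga3), against 10.9% of all genes. The median log2 fold change was -0.050 over the members and -0.006 over all genes. Below 0 were 45 members and above it 23, beside 7924 and 7387 of all genes. In size, the log2 fold change was smaller than 0.2 in 48 of the 68 members, beside 11948 of all 15311 genes. Its median size was 0.130 over the members and 0.091 over all genes. The authors' deposited table calls the same 6 genes in the same directions at an adjusted p under 0.05.

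**Figure D1:**
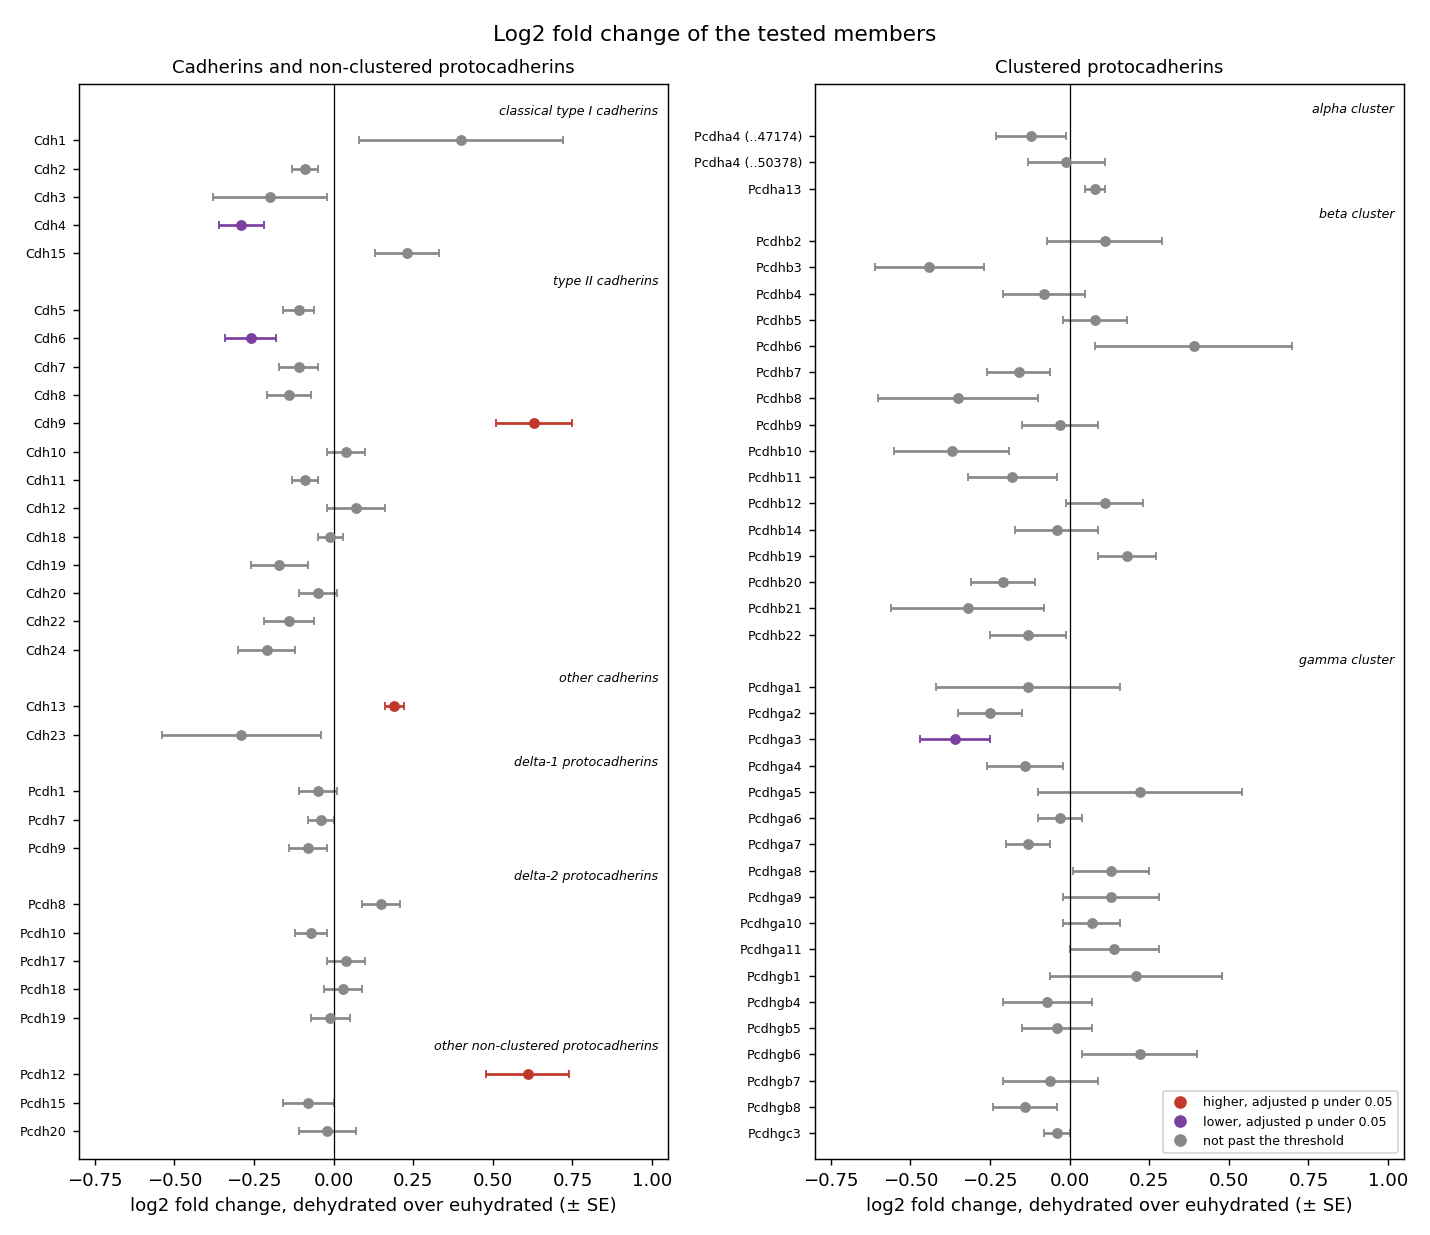
Log2 fold change, dehydrated over euhydrated, of the 68 tested members, with bars of 1 SE, in panels of cadherins with non-clustered protocadherins and of clustered protocadherins. Cdh9 and Pcdh12 lie farthest right, at 0.63 and 0.61, while most members lie within 0.2 of 0; the wide bars belong to Cdh1, Pcdhga5, Pcdhb6 and Pcdhga1.

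Cdh9 is a type II cadherin, known in mouse hippocampus for its part in forming particular synapses. It had 73.4, 83.4, 110.2, 97.0 and 88.8 CPM in the dehydrated libraries and 60.5, 48.8, 53.6, 65.5 and 64.9 CPM in the euhydrated libraries. The groups did not overlap: the lowest dehydrated library lay above the highest euhydrated one. It rose 1.54-fold, with log2 fold change 0.63 ± 0.12 (± SE; edgeR adjusted p = 0.00852). No library decided the call, since the highest adjusted p with a library left out was 0.0239. With the erythrocyte marker level as a covariate, the log2 fold change was 0.61 and the adjusted p 0.0916.

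Cdh13 encodes T-cadherin, which is held to the membrane by a lipid anchor, has no cytoplasmic tail, and is also known as a receptor for adiponectin. Its level was 342, 322, 342, 349 and 338 CPM in dehydrated libraries, against 302, 289.5, 309.9, 289 and 297 CPM in euhydrated libraries. Every dehydrated library again lay above every euhydrated one, with little spread within either group. The rise was small, 1.14-fold, with log2 fold change 0.19 ± 0.03 (± SE; edgeR adjusted p = 0.000662), and was kept under each of the 21 alternatives at the same threshold, with a highest adjusted p of 0.0402 (erythrocyte covariate, log2 fold change 0.15). Its spread was among the lowest of the members, at a biological coefficient of variation (the spread between libraries beyond counting error) of 0.0399 beside a median of 0.0716 over all genes.

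Pcdh12, a protocadherin known from endothelial cells and placenta, was much scarcer in counts. Dehydrated libraries had 5.53, 5.10, 7.06, 6.20 and 6.56 CPM and euhydrated libraries 4.84, 3.90, 3.03, 4.60 and 3.55 CPM, with no overlap. It rose 1.53-fold, with log2 fold change 0.61 ± 0.13 (± SE; edgeR adjusted p = 0.00642), at most 0.0214 with a library left out, and 0.131 with the erythrocyte covariate (log2 fold change 0.50). Cdh5, for VE-cadherin of endothelial junctions, had 50.5 ± 2.71 CPM in dehydrated and 54.7 ± 3.84 CPM in euhydrated libraries (SD, n = 5 each), with log2 fold change -0.11 ± 0.05 (± SE; edgeR adjusted p = 0.179). Of 9 endothelial markers tested, 0 passed; their mean log2 CPM was 5.50 ± 0.07 in dehydrated and 5.47 ± 0.03 in euhydrated libraries (exact permutation p = 0.397), and Pcdh12 kept its call with that level as a covariate.

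**Figure D2:**
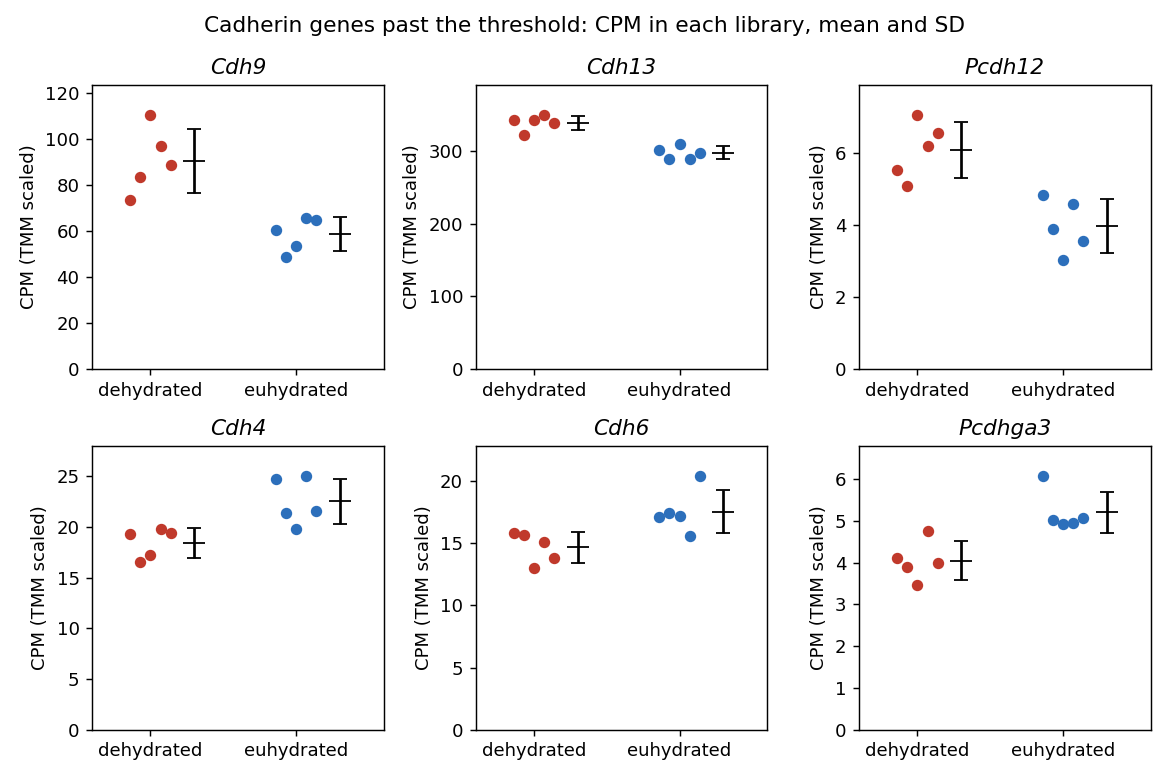
CPM of the 6 members past the threshold in each library, 5 dehydrated on the left and 5 euhydrated on the right of each panel, with points for libraries and bars for the mean and SD. Groups separate in Cdh9, Cdh13, Pcdh12 and Pcdhga3, meet at 19.8 CPM in Cdh4 and overlap in Cdh6.

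Cdh4, or R-cadherin, is a type I cadherin of brain. Dehydrated libraries had 19.3, 16.5, 17.2, 19.8 and 19.4 CPM and euhydrated libraries 24.7, 21.4, 19.8, 25 and 21.6 CPM. The highest dehydrated and the lowest euhydrated library stood side by side at 19.8 CPM, with no overlap before rounding. The log2 fold change was -0.29 ± 0.07 (± SE; edgeR adjusted p = 0.018). The call was lost without euhydrated 1 (0.0504, log2 fold change -0.25) or euhydrated 4 (0.053, at -0.24), and with the oligodendrocyte or the erythrocyte covariate (0.0767 at -0.24 and 0.0838 at -0.33).

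Cdh6, a type II cadherin known from kidney and from neural circuits, had 15.8, 15.7, 13.0, 15.1 and 13.8 CPM in dehydrated and 17.1, 17.4, 17.2, 15.6 and 20.4 CPM in euhydrated libraries. The groups overlapped through euhydrated 4, and euhydrated 5 was the highest. The log2 fold change was -0.26 ± 0.08 (± SE; edgeR adjusted p = 0.0401). Its adjusted p was the highest of the 6, and leaving out dehydrated 3, 4 or 5 or euhydrated 1, 2, 3 or 5 ended it, at adjusted p of 0.0544 to 0.104 and log2 fold changes of -0.27 to -0.19. The adjusted p was 0.333 with the erythrocyte level as a covariate (log2 fold change -0.19), 0.112 with the oligodendrocyte level (-0.23) and 0.0522 with the endothelial level (-0.27).

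Pcdhga3, the only clustered member past the threshold, had 4.11, 3.89, 3.47, 4.76 and 4.0 CPM in dehydrated and 6.07, 5.01, 4.92, 4.95 and 5.07 CPM in euhydrated libraries. No library of either group crossed into the other. The log2 fold change was -0.36 ± 0.11 (± SE; edgeR adjusted p = 0.0355). This call too was lost when any 1 of 8 libraries was left out (all except dehydrated 4 and euhydrated 3), at adjusted p of 0.052 to 0.0996; without euhydrated 1, its highest library, the log2 fold change was -0.30. Adding the erythrocyte level to the fit gave log2 fold change -0.47 (adjusted p = 0.0667), adding the oligodendrocyte level -0.31 (0.112), and adding the endothelial level -0.35 (0.0732). Its neighbour Pcdhga2, whose promoter stretch above is similar, had 11.1 ± 1.30 CPM in dehydrated and 13.2 ± 1.6 CPM in euhydrated libraries (SD, n = 5 each), with log2 fold change -0.25 ± 0.10 (± SE; edgeR adjusted p = 0.106).

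Of the 5 type I cadherins, 1 fell (Cdh4) and 4 did not pass. Cdh2, or N-cadherin, the main adhesion molecule of neural tissue, had 157 to 179 CPM in dehydrated and 168 to 183 CPM in euhydrated libraries, with log2 fold change -0.09 ± 0.04 (± SE; edgeR adjusted p = 0.168). Cdh1, or E-cadherin of epithelia, had the highest coefficient of variation of the members tested: 7.97, 10.5, 7.43, 9.36 and 13.1 CPM in dehydrated and 10.3, 6.87, 9.21, 7.69 and 2.57 CPM in euhydrated libraries. Euhydrated 5 was the lowest library and dehydrated 5 the highest, and the coefficient of variation within groups was 0.355. The log2 fold change of Cdh1, 0.40 ± 0.32 (SE), was not past the threshold (edgeR adjusted p = 0.49). Cdh3 and Cdh15, known from placenta and muscle, had log2 fold changes of -0.20 and 0.23 (adjusted p = 0.52 and 0.16 in edgeR).

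Of the 13 type II cadherins, all tested, Cdh9 rose, Cdh6 fell and 11 did not pass, with 10 of 13 below 0 and a median log2 fold change of -0.11. Cdh11, known from mesenchyme and bone as well as brain, had 78.6 ± 4.92 CPM in dehydrated and 83.6 ± 1.97 CPM in euhydrated libraries (SD, n = 5 each), with log2 fold change -0.09 (edgeR adjusted p = 0.186; it passed at 0.047 without dehydrated 1). Of the type II cadherins that did not pass, Cdh10 had log2 fold change 0.04 ± 0.06 (± SE, edgeR adjusted p = 0.76). Cdh12 had 0.07 ± 0.09 (± SE, edgeR adjusted p = 0.651). Cdh18 was nearly level, at 47.1 ± 1.47 and 47.5 ± 2.58 CPM in dehydrated and euhydrated libraries. The difference between Cdh9 and these genes was not itself tested.

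Among the remaining cadherins, Cdh23, a tip-link protein of hair cells in the inner ear, had 1.49 to 2.53 CPM in dehydrated and 1.27 to 3.18 CPM in euhydrated libraries (log2 fold change -0.29 ± 0.25, ± SE; edgeR adjusted p = 0.519). Cdh16, Cdh17 and Cdh26 had too few counts to enter the test, as had Pcdhb1 in the beta cluster. Cdh16 and Pcdhb1 never exceeded 3 counts in a library, and Cdh26 never exceeded 8. Cdh17, the cadherin of liver and intestine, had 20, 6, 19, 28 and 14 counts in dehydrated libraries and 6, 7, 5, 5 and 6 counts in euhydrated libraries. All dehydrated libraries except dehydrated 2 lay above the euhydrated range. Where every gene with a count was tested, its log2 fold change was 1.67 ± 0.39 (± SE; edgeR adjusted p = 0.00608); the authors' deposited table gives 1.69 with no adjusted p. That it can be tested at all depends on the dehydrated group, so it is not counted among the calls.

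None of the 3 delta-1 or 5 delta-2 protocadherins passed. These non-clustered protocadherins act as homophilic adhesion and signalling proteins in developing and adult brain. In delta-1, Pcdh1 had 97.2 ± 6.82 CPM in dehydrated and 101 ± 8.34 CPM in euhydrated libraries, and Pcdh9 64.9 ± 4.34 and 68.6 ± 5.35 CPM (SD, n = 5 each; edgeR adjusted p = 0.629 and 0.398). In delta-2, Pcdh10 had 94.5 ± 5.90 and 99.5 ± 6.25 CPM and Pcdh17 92.5 ± 5.58 and 89.8 ± 7.77 CPM in dehydrated and euhydrated libraries (edgeR adjusted p = 0.367 and 0.701). Pcdh8, also called arcadlin and known as induced by neuronal activity in rat hippocampus, had 39.5 to 46.7 CPM in dehydrated and 34.2 to 42.0 CPM in euhydrated libraries, with log2 fold change 0.15 ± 0.06 (± SE; edgeR adjusted p = 0.13). Log2 fold changes of all 8 lay between -0.08 and 0.15. Outside these families, Pcdh20 had log2 fold change -0.02 ± 0.09 and Pcdh15, of the hair cell tip link, of -0.08 ± 0.08 (± SE; edgeR adjusted p = 0.906 and 0.618).

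Of 37 clustered protocadherins tested, 1 fell (Pcdhga3) and 0 rose, which is 2.70% beside the 12.7% of all genes. Their median SE was larger, at 0.121 beside 0.0668 over all genes. The median size of their log2 fold change was 0.132, beside 0.091 over all genes. By DESeq2 the count was also 1 lower and 0 higher. At an unadjusted edgeR p under 0.05 the clustered count was 4, beside 4046 of all 15311 genes. The clustered genes past the threshold changed with the library left out: Pcdhb3 in place of Pcdhga3 without dehydrated 2 or euhydrated 1, Pcdhb10 beside it without dehydrated 4, it alone without euhydrated 3, and none in edgeR when any 1 of the other 6 was left out. The summed alpha level was 141 to 151 CPM in dehydrated and 131 to 147 CPM in euhydrated libraries. The summed gamma level was 271 to 305 and 296 to 305 CPM. The summed beta level was 84.0 to 86.1 CPM in dehydrated and 87.4 to 92.5 CPM in euhydrated libraries, ranges that did not overlap although none of the 16 beta genes tested passed. Their log2 fold changes ran from -0.44 (Pcdhb3) to 0.39 (Pcdhb6), with 11 of 16 below 0.

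Alpha and gamma genes share constant exons at the end of each array, and how reads there were assigned is, in the sources used here, not given; counts of single genes in those arrays are uncertain. In the alpha array most counts stood under Pcdha13, with 134 to 143 CPM in dehydrated and 123 to 137 CPM in euhydrated libraries (log2 fold change 0.08 ± 0.03, ± SE; edgeR adjusted p = 0.139). The symbol Pcdha4 stood on 2 identifiers; ENSRNOG00000050378 had 4.14 ± 0.683 CPM in dehydrated and 4.19 ± 0.267 CPM in euhydrated libraries, and ENSRNOG00000047174 had 3.92 ± 0.276 and 4.26 ± 0.488 CPM (SD, n = 5 each). In the gamma array Pcdhgc3 had 148 to 166 CPM in dehydrated and 155 to 166 CPM in euhydrated libraries (log2 fold change -0.04 ± 0.04, ± SE; edgeR adjusted p = 0.491), and Pcdhga7 17.7 ± 0.892 and 19.4 ± 2.02 CPM (adjusted p = 0.242 in edgeR). In the beta array, whose genes have no shared constant exon, Pcdhb5 had 9.66 ± 1.06 and 9.15 ± 1.09 CPM and Pcdhb9 11.4 ± 2.19 and 11.6 ± 1.15 CPM (SD, n = 5 each; edgeR adjusted p = 0.66 and 0.918).

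Single clustered genes varied from library to library within both groups. Their median biological coefficient of variation was 0.128, beside 0.0688 in the 31 other members tested and 0.0716 over all genes; it was above that last median in 16 of 16 beta and 17 of 18 gamma genes, the exception being Pcdhgc3. Low counts go with a higher estimate, and no comparison at matched level was made. The genes followed next were chosen after their values were seen.

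**Figure D3:**
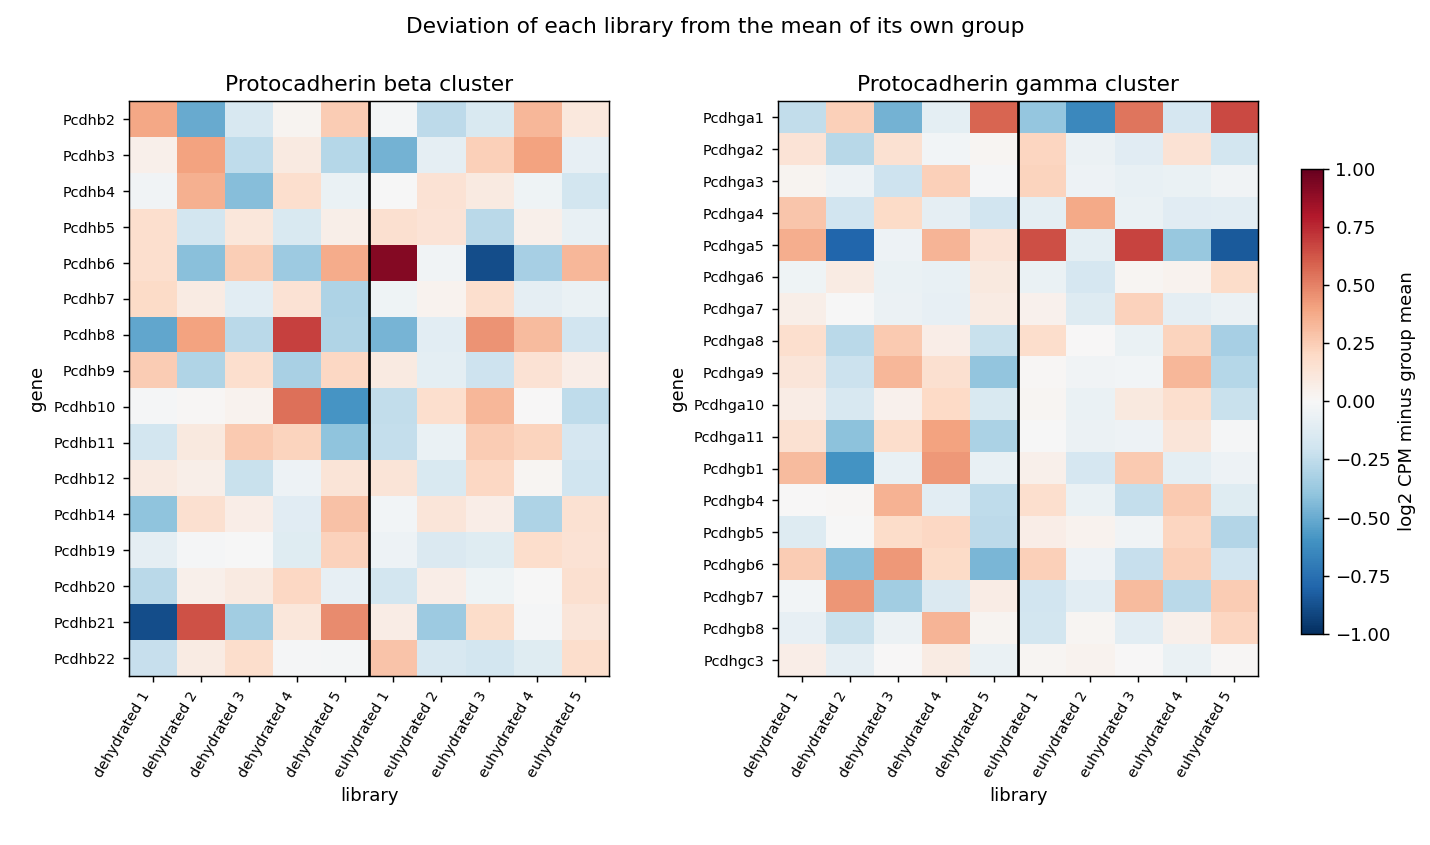
Deviation of log2 CPM from the mean of the library's own group for each tested beta (left) and gamma (right) protocadherin, with dehydrated 1 to 5 left of the line and euhydrated 1 to 5 right of it; red is above and blue below the group mean. Pcdhb6 and Pcdhb8 carry opposite colours in every library except euhydrated 2, as do Pcdhgb6 and Pcdhgb7.

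Pcdhb6 had 4.55, 3.00, 4.80, 3.12 and 5.24 CPM in dehydrated and 5.53, 2.83, 1.53, 2.28 and 3.66 CPM in euhydrated libraries. Pcdhb8 had 2.29, 4.40, 2.73, 5.35 and 2.68 CPM in dehydrated and 3.11, 4.01, 5.93, 5.40 and 3.77 CPM in euhydrated libraries. In both groups the libraries with the most Pcdhb6 had little Pcdhb8; euhydrated 2 and 5 lay between. The ratio of their CPM, not corrected for length, ran from 0.583 to 1.98 in dehydrated and from 0.259 to 1.78 in euhydrated libraries. Their sum varied far less, from 6.84 to 8.47 CPM in dehydrated and from 6.83 to 8.64 CPM in euhydrated libraries. Neither gene passed the test between groups (edgeR adjusted p = 0.477 and 0.418). Pcdhb3, whose promoter stretch matched that of Pcdhb6 at 26 of 37 positions, also ran against Pcdhb6, with 3.86, 4.94, 3.10, 3.96 and 3.04 CPM in dehydrated and 3.61, 4.72, 5.96, 6.70 and 4.75 CPM in euhydrated libraries. Of 666 pairs of clustered genes, ranked from the lowest correlation of deviations from the group mean, Pcdhb6 with Pcdhb8 stood at rank 5 (-0.85). Pcdhb3 with Pcdhb6 stood at rank 3 (-0.86). Pcdhb4 and Pcdhb12, whose stretches matched at 34 of 37 positions, correlated at 0.44. Pcdhb7 and Pcdhb9, whose stretches matched at 33 of 37, correlated at -0.55. The transcribed sequences of these genes were not compared. How reads common to similar genes were counted is not stated, so the counts of these genes are uncertain. No cause of the pattern was tested.

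**Figure D4:**
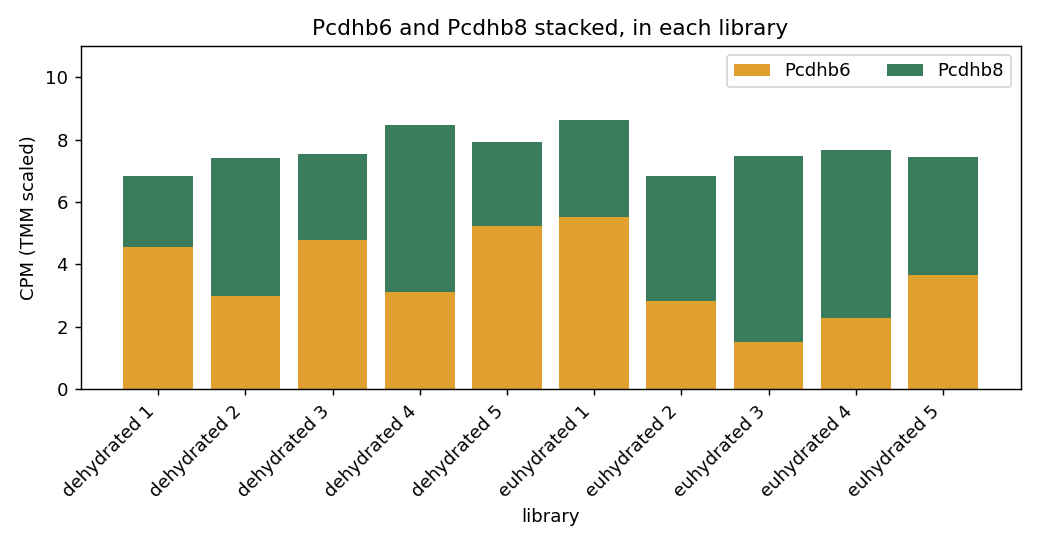
CPM of Pcdhb6 (lower part) and Pcdhb8 (upper part) stacked for each library, dehydrated 1 to 5 on the left and euhydrated 1 to 5 on the right. The total stays between 6.83 and 8.64 CPM while the part held by Pcdhb6 changes from 1.53 to 5.53 CPM.

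In the gamma array 4 of the 18 genes, picked after their values were seen, are given as examples of genes that varied together or against each other. Some other gamma genes varied with them. In deviations from the group mean, Pcdhgb6 and Pcdhga8 correlated at 0.92 and Pcdhga8 and Pcdhgb7 at -0.86. Pcdhga9 correlated with Pcdhga8 at 0.92 and with Pcdhgb6 at 0.89. Pcdhga2 correlated with Pcdhga8 at 0.86, and Pcdhga6 with Pcdhga1 at 0.87. Pcdhgb6 had 8.26, 5.14, 9.35, 7.88 and 5.0 CPM in dehydrated and 7.16, 5.87, 5.16, 7.15 and 5.29 CPM in euhydrated libraries. Pcdhga8 followed it, with 10.6, 7.79, 11.3, 9.86 and 8.04 CPM in dehydrated and 9.72, 8.62, 8.23, 10.1 and 6.85 CPM in euhydrated libraries. Both were low in dehydrated 2 and 5 and in euhydrated 3 and 5. Pcdhgb7 ran the other way, with 8.92, 12.4, 7.17, 8.26 and 9.60 CPM in dehydrated and 8.35, 8.84, 11.9, 7.88 and 11.3 CPM in euhydrated libraries. Pcdhga1 was likewise high in dehydrated 2 and 5 and euhydrated 3 and 5, where it had 3.74, 4.76, 4.88 and 5.33 CPM, against 2.11 to 2.97 CPM in the other 6 libraries. None of the 4 differed between the groups past the threshold (edgeR adjusted p = 0.482, 0.547, 0.857 and 0.833 for Pcdhgb6, Pcdhga8, Pcdhgb7 and Pcdhga1).

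Genes that work with these proteins were followed in 5 lists. Of 15 catenins and junction linkers 1 fell and 0 rose. That gene, Plekha7, for a protein that links p120-catenin to microtubules, had 20.8 ± 1.54 CPM in dehydrated and 24.7 ± 2.27 CPM in euhydrated libraries (SD, n = 5 each), with log2 fold change -0.25 ± 0.07 (± SE; edgeR adjusted p = 0.0239). The list's median was -0.05, beside -0.006 over all genes.

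Of 17 other cadherin superfamily genes tested, 3 rose and 1 fell, with a list median of 0.02. Dchs1 and Fat4 encode giant cadherins that bind each other across cells in planar cell polarity, and they moved in opposite directions. Dchs1 had 64.1 ± 2.83 CPM in dehydrated and 51.5 ± 3.12 CPM in euhydrated libraries, with log2 fold change 0.32 ± 0.05 (± SE; edgeR adjusted p = 0.00031), and Fat4 had 12.2 ± 1.38 and 15.4 ± 1.55 CPM, with log2 fold change -0.34 ± 0.09 (± SE; edgeR adjusted p = 0.0182). Dchs1 did not overlap between the groups and Fat4 did. Ret, a receptor tyrosine kinase with cadherin-like domains, had 76.4 to 102 CPM in dehydrated and 48.7 to 65.2 CPM in euhydrated libraries and rose 1.56-fold (edgeR adjusted p = 0.0011). Clstn3, for a calsyntenin of the postsynaptic membrane, rose 1.14-fold, with 570.0 to 628 and 510.4 to 542 CPM (edgeR adjusted p = 0.000917).

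Cadherins and protocadherins are cut by Adam10 and then by gamma-secretase. Of 8 genes of this cleavage, 2 rose and 0 fell, both subunits of gamma-secretase: Ncstn had 101 ± 3.26 CPM in dehydrated and 86.6 ± 2.25 CPM in euhydrated libraries (log2 fold change 0.22 ± 0.03, ± SE; edgeR adjusted p = 0.000376), and Psen2 33.1 ± 1.70 and 28.8 ± 1.24 CPM (0.20 ± 0.05; edgeR adjusted p = 0.0132). The list's median was 0.01. Of 17 chromatin regulators of the protocadherin arrays, among them Ctcf and the cohesin subunits, 1 fell and 0 rose: Pds5b, a cohesin regulator, had 169 ± 5.18 CPM in dehydrated and 185 ± 3.12 CPM in euhydrated libraries (log2 fold change -0.13 ± 0.03, ± SE; edgeR adjusted p = 0.00746). Of 15 signalling partners, 1 fell and 0 rose: Dab1, an adaptor of the reelin pathway, had 76.7 ± 4.59 and 91.6 ± 2.09 CPM (log2 fold change -0.26 ± 0.04, ± SE; edgeR adjusted p = 0.00059).

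**Figure D5:**
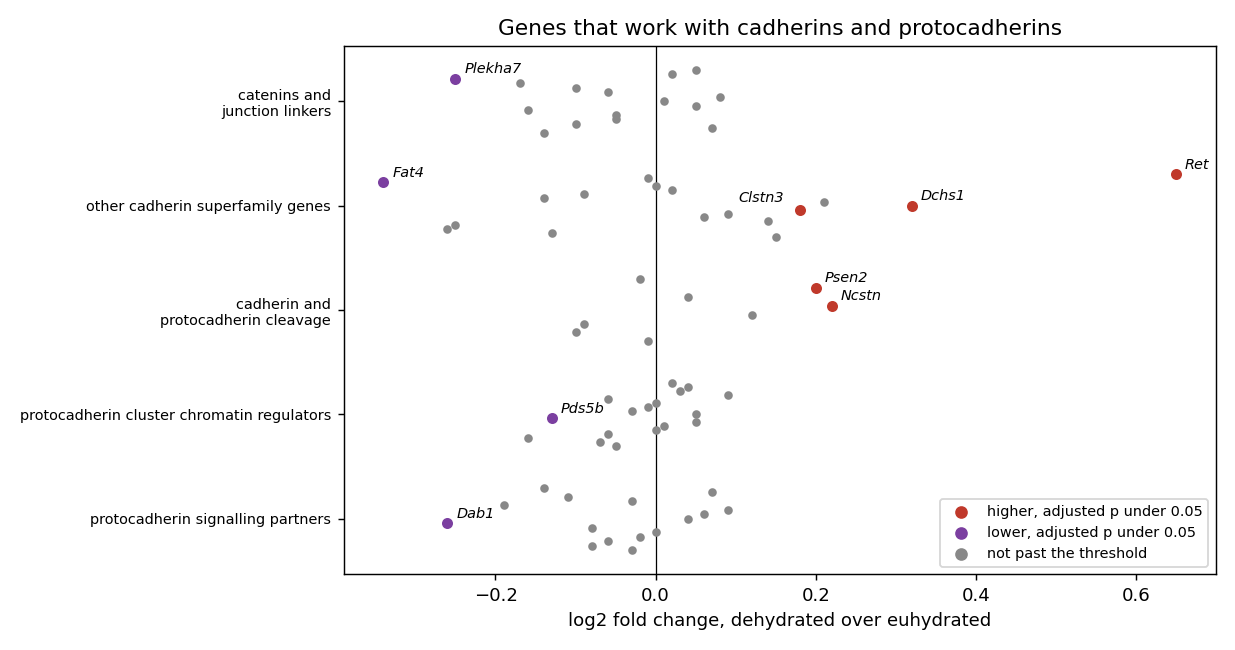
Log2 fold change, dehydrated over euhydrated, of the tested genes of 5 lists that work with cadherins and protocadherins; each point is a gene, and those past the threshold are named. Ret lies farthest right at 0.65 and Fat4 farthest left at -0.34, while each list's median is within 0.05 of 0.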

How the data were processed

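Polyadenylated RNA was sequenced from 5 dehydrated and 5 euhydrated samples. The deposited counts are whole reads for each Ensembl gene, made with STAR and featureCounts per the submitters' processing notes; of build, annotation and strand setting, nothing is given in the sources used here. The authors also deposited a DESeq2 table (version 1.28.1 per the submitters' processing notes) that holds, per the file headers, normalised counts (a signal), log2 fold changes, a Wald score, p-values and adjusted p-values; it gave the symbols. Each library's number is that in its column; euhydrated 3 to 5 could be tied to their group only. Libraries of a group differed by more than counting error (20 pairs; chi-square over its degrees of freedom 5.05 to 12.7), so each was counted once.

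Genes were kept by filterByExpr (15311 of 32402), scaled by TMM and tested in edgeR 4.0.16 (R 4.3.3; glmQLFit and glmQLFTest, robust, no covariate), with Benjamini-Hochberg adjustment over all genes tested at 0.05; "edgeR adjusted p" means this. SEs were computed from the fold change and its F statistic. DESeq2 1.42.0 and limma 3.58.1 (voom), other scalings and filters, blocks by number, marker levels as covariates and leaving out each library were alternatives; the endothelial covariate was added after the data were seen. Marker lists were compared by exact permutation over 252 labellings (smallest p 0.00794). Log2 CPM used a prior count of 2. Members and lists were chosen with earlier results of these data known. Partner genes were all matched and tested except in the list of other superfamily genes, of whose 22 genes 20 were matched and 17 tested. Members named with full values are those past the threshold and the 2 with the highest mean CPM in each structural subgroup; the other members named were chosen after their values were seen.

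Of the other marker lists, magnocellular neurones were 0.62 higher in mean log2 CPM (exact permutation p = 0.00794, adjusted p = 0.0952 over 12 lists). That p is the smallest the permutation can give, so a single list could not pass after this adjustment. The adjusted value therefore does not decide whether the magnocellular level differed. Within that list Pdyn, Caprin2 and Nrsn1 passed the edgeR test, and Avp, Oxt, Otp and Sim1 did not. The remaining lists had exact permutation p of 0.119 or more. Mural cells differed by 0.13, meningeal and fibroblast cells by 0.13, oligodendrocyte precursors by 0.03 and ependymal cells and tanycytes by 0.07. Astrocytes differed by -0.07, microglia by -0.10, GABAergic neurones by -0.10 and glutamatergic neurones by -0.04.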

Additional observations from a re-analysis of the deposited data

Results flagged for a closer look

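In 2 of 42 group checks of the members named by the rule, a library stood apart from the other 4 of its group; chance alone gives about 1 in 20. Pcdh20 was at 21.5 CPM in dehydrated 3, against 28 to 29.7 CPM in the other dehydrated libraries. Pcdhga3 was at 6.07 CPM in euhydrated 1, against 4.92 to 5.07 CPM in the other euhydrated libraries, and without euhydrated 1 its edgeR adjusted p was 0.0996.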

How the results depend on the processing

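DESeq2 size factors, library totals, the filter of 1 CPM in 5 libraries, DESeq2 and limma-voom each called the same 6 members, and testing every gene with a count added Cdh17. With the erythrocyte marker level as a covariate 1 member rose (Cdh13) and 1 fell (Cdh22, not called otherwise), and 784 of all genes passed, against 1942. That covariate differs between the groups, and so cannot be fully told apart from them. No member fell with the oligodendrocyte covariate (0) or at an adjusted p of 0.01 (0, with 891 of all genes), and 1 fell with the endothelial covariate; 3 rose in each. Leaving out a library in turn gave 3 to 4 members higher, 1 to 4 lower (1 without dehydrated 3 or 5 or euhydrated 1, 2, 4 or 5), and 1494 to 1756 of all genes. Cdh17 entered the test and passed in 6 of these 10. Calls of Cdh9, Cdh13 and Pcdh12 were kept in each of these 10 fits; Cdh4 lost its call in 2, Cdh6 in 7 and Pcdhga3 in 8. Of the partner genes, 15 passed with library totals, against 9; the cause was not tested.

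Samples that share a number showed little common deviation (correlations of -0.07 to 0.14 over the 5 numbers). Whether they share more than a number cannot be read from this, as euhydrated 3 to 5 were tied to their group only. A replicate block by column number gave 4 members higher and 2 lower (Pcdh8 gained, Cdh6 lost at an edgeR adjusted p of 0.0572), and a block for numbers 1 and 2, which labels and columns share, gave 3 and 2 (Cdh6 lost at 0.0514). Only dehydrated 2 correlated best with its own number. Depth limits the scarcest clustered genes: Pcdhgb1 had 68 counts over the dehydrated and 63 over the euhydrated libraries.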
